A study of Mus musculus with 9 samples.

Results

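The Wnt signalling genes are 51 mouse genes that encode secreted Wnt ligands, their receptors, secreted inhibitors, R-spondins and the proteins that carry the signal to the nucleus. Chromatin accessibility around them was compared in 9 ATAC-seq libraries, an assay in which a transposase cuts open chromatin and sites with many cuts are called as peaks. The cells were C3H/10T1/2 cells, an established mouse line used as mesenchymal progenitor cells (MPCs). The wild-type (WT) control was isogenic and had received an empty vector that carried Cas9 and no guide RNA. The knockout (KO) clones, B10 and G7, came from different guides against Atrx, a chromatin remodeller gene. All lines had therefore received Cas9, each KO line was grown from a sorted single cell and is 1 clone, and each line had 3 libraries. The effect of the clone and the effect of the knockout cannot be told apart within 1 line. Touching peaks of all libraries were merged, and a merged region with a peak in at least 2 of 3 libraries of any line was a consensus region. A region belonged to a Wnt gene when the nearest protein-coding start site was that of the gene, which gave 519 of 97338 consensus regions, around 50 of the 51 genes. Fzd10 had no region.

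Wnt ligands bind Frizzled receptors together with the co-receptors LRP5 and LRP6, and this keeps β-catenin (Ctnnb1) from being destroyed by a complex built on AXIN and APC. β-catenin then joins TCF and LEF proteins on DNA and turns on target genes, while other ligands act through ROR1, ROR2 and Frizzled proteins without β-catenin. Secreted SFRP, DKK and WIF1 proteins block the signal and R-spondins strengthen it, and in mesenchymal progenitors the pathway is known to favour bone and restrain fat formation.

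Sequences are shown for the regions that the results turn on, from the GRCm38 (mm10) reference, 5′ to 3′ on the strand named. The first pair shows the 300 bases just before the first annotated start of Axin2 (chr11:108920049-108920348, plus strand), whose start region had a peak in WT and in neither clone, and of Fzd9 (chr5:135251231-135251530, minus strand), where the opposite was seen. The next 3 are the 201 bases around the strongest summit at regions that ranked lower in B10, the Tcf7 start (chr11:52283238-52283438, minus strand), the Wnt1 start (chr15:98789060-98789260, plus strand) and a site near Wnt7b (chr15:85603479-85603679, plus strand). Windows of the same length follow for sites with peaks in the clones and none in WT, in an intron of Ror1 (chr4:100160438-100160638), near the start of Rspo3 (chr10:29532939-29533139) and in an intron of Tcf7l2 (chr19:55752934-55753134), all on the plus strand, with a neighbouring Tcf7l2 site that was lost (chr19:55749771-55749971). The last 4 windows, on the plus strand, are the Dkk2 (chr3:132087247-132087447) and Lrp5 (chr19:3643702-3643902) sites that ranked higher in both clones, and sites lost near Wnt2 (chr6:17925408-17925608) and Wnt5a (chr14:28456480-28456680). Capitals mark a match, on either strand, to CTTTGAT, a core of sites bound by TCF and LEF proteins, or to TGAGTCA, the site of AP-1. Sequences wholly in lower case hold no match to these letters.
Axin2, upstream of the start: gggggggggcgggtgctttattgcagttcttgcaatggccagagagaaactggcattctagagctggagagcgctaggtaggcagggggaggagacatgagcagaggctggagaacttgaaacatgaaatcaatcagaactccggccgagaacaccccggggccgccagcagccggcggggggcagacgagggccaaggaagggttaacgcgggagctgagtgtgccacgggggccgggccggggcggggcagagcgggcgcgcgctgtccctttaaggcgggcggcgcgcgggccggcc
Fzd9, upstream of the start: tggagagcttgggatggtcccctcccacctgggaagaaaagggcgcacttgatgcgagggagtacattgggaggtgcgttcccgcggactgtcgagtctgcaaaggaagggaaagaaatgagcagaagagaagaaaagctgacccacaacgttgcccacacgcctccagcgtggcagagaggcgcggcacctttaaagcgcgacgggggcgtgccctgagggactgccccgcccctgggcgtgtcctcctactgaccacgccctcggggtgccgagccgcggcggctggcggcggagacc
Tcf7 start: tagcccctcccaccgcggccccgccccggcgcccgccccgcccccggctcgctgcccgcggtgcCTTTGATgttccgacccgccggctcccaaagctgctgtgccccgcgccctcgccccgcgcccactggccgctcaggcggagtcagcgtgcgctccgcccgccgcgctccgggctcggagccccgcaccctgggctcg
Wnt1 start: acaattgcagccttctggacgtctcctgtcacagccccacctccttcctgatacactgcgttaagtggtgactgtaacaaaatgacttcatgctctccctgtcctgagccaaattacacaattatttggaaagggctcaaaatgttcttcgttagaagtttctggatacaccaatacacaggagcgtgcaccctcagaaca
Wnt7b site: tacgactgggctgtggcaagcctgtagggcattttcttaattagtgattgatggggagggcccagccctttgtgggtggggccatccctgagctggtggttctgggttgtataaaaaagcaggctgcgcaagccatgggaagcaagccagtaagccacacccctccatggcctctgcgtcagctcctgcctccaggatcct
Ror1 intron: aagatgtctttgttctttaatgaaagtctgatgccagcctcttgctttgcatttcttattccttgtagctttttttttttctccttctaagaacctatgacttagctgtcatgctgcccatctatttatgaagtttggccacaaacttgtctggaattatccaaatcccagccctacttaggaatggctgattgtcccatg
Rspo3 site: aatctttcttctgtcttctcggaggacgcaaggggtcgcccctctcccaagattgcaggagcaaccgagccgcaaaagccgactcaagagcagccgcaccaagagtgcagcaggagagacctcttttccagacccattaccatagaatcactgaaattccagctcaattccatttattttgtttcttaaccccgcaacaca
Tcf7l2 intron, gained: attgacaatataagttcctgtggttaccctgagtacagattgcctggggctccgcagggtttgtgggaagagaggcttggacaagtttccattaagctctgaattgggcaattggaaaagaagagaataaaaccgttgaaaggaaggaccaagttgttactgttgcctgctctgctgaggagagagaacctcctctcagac
Tcf7l2 intron, lost: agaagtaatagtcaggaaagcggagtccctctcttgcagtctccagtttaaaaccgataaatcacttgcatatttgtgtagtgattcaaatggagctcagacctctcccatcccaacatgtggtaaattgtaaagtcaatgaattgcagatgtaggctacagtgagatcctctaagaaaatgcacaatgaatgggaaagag
Dkk2 site: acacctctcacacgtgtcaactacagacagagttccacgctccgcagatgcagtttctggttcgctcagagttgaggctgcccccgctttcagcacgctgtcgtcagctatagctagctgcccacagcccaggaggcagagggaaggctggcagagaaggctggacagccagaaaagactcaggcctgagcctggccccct
Lrp5 intron: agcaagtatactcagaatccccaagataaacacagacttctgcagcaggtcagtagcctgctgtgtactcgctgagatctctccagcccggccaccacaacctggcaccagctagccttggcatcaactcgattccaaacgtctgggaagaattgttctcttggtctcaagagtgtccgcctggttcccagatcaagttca
Wnt2 site, lost: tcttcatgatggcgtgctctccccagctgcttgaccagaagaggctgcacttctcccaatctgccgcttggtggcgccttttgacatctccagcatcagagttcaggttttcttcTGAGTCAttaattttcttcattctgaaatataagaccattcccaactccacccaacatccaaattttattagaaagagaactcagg
Wnt5a site, lost: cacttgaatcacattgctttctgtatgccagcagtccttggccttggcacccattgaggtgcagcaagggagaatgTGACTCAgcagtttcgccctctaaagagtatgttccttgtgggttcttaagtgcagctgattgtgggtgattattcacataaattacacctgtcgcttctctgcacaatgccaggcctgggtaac

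The libraries held 78139 to 81226 peaks in WT, 81315 to 88535 in B10 and 76385 to 79464 in G7, and all consensus regions had peaks at 72566 to 74092, 75948 to 80397 and 72146 to 73649 of their number in the same order. The depth of the libraries is unknown, since peak lists hold no counts, and a missing peak may have fallen just under the threshold. The start sites of 12 of 13 mesenchymal or fibroblast markers were open in all 9 libraries, Thy1 being at 0, against 0 of 6 epithelial, 0 of 4 endothelial, 0 of 5 blood and 0 of 4 neural markers, although Cdh5, Syp and Rbfox3 had a peak at the start in some libraries. Replicate 1 libraries of the 3 lines deviated together, as did replicates 2 and 3.

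More Wnt regions were open in both clones than in WT, and by more in B10. Peaks were present at 368, 367 and 351 of the 519 regions in WT replicates 1, 2 and 3, at 417, 430 and 393 in B10 and at 386, 389 and 379 in G7. The means were 362.0 ± 9.54 (SD, n = 3) in WT, 413 ± 18.8 in B10 and 385 ± 5.13 in G7, and the lines did not overlap. Over all consensus regions every B10 library was above every WT library as well, while G7 overlapped WT. Gained regions of a clone had a peak in 2 or 3 of its libraries and in no WT library, and lost regions had a peak in 2 or 3 WT libraries and in none of the clone. The genes were chosen with results of these data known, so their counts are no independent evidence of a direction. B10 gained 79 Wnt regions, or 15.2% (10.4% of all consensus regions), and lost 26, or 5.01% (7.58% of all). G7 gained 44, or 8.48% (5.69% of all), and lost 31, or 5.97% (7.42% of all). Both clones gained 24, or 4.62% (2.97% of all), and lost 14, or 2.70% (4.36% of all). The shares gained were thus above the background and the shares lost were below it. With the same number of peaks taken from every library, B10 gained 11.9% of the Wnt regions (8.28% of all). Among the 293 Wnt regions within 50 kb of a start the shares were nearer the background, with 9.56% gained in B10 (8.06% of all regions at that distance) and 5.46% in G7 (5.28% of all). The clones also differed from each other, with 47 regions present in B10 and in no G7 library (9.06%, 8.25% of all) and 26 in the reverse case (5.01%, 4.24% of all). With the same number of peaks from every library this order turned, to 28 (5.86%, 6.02% of all) and 37 (7.74%, 5.99% of all).

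Wnt regions lay farther from genes' starts than regions in general, with a median distance of 36.9 kb against 20.9 kb, and 19.8% were promoter regions (within 3 kb of any annotated transcript start) against 30.9%. Introns held 39.7% of them (31.9% of all regions) and intergenic sequence 37.4% (32.4% of all). A peak in all 9 libraries was found at 232 regions of 46 genes, or 44.7% (48.7% of all), and Fzd3, Fzd10, Rspo3, Wnt5a and Wnt9b had no such region. Of the 24 regions gained in both clones, 15 had a peak in all 6 KO libraries (1054 of 2889 over all regions), and of the 14 lost ones 4 had a peak in all 3 WT libraries (1587 of 4247 over all). The strength of a peak was read as its rank, the percentile of its −log10 q-value among the peaks of its own library, so that the strongest peaks have the highest ranks. For each region gained in both, the median rank over the KO libraries with a peak was taken. The median of these values was 31.6 over the Wnt regions (26.1 over all such regions). Of the 14 lost regions, 9 ranked below 20 in every WT library that held them. The median of the same values taken over WT libraries was 13.7 for these 14. It was 19.9 over all regions lost in both clones, so lost regions ranked low in general.

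Ranks were compared with limma at the 232 regions open in all 9 libraries, as part of one fit over 47431 regions. Higher ranks in B10 than in WT were called at 32 Wnt regions, or 13.8% (11.0% of all), and lower ranks at 16, or 6.90% (5.37% of all). In G7, 13 were higher, or 5.60% (5.39% of all), and 3 lower, or 1.29% (4.82% of all). The share higher was thus close to the background in G7. Both clones ranked higher at 9, or 3.88% (3.81% of all), and lower at 1, or 0.431% (1.66% of all). B10 was above G7 at 8, or 3.45% (4.21% of all), and below it at 8, or 3.45% (2.39% of all). The median difference was 2.62 rank points in B10 (0.70 over all regions) and 0.521 in G7 (-0.035 over all). With the replicate number as a block, 67 (28.9%) were higher and 30 (12.9%) lower in B10, against 21.4% and 12.1% of all regions, and 37 (15.9%) were higher and 19 (8.19%) lower in G7, against 13.2% and 13.4% of all. The split depended on the scale, since 66.7% of the called regions were higher in B10 and 81.3% in G7 by rank, but 47.1% and 37.5% when the fold enrichment was used, where only 17 and 8 regions were called, and 47.8% and 76.5% when the median rank of the neighbouring 5 Mb was subtracted.

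The role groups differed in these counts, without a test of the difference. R-spondin regions were most often gained in B10, 19 of 48 (39.6%) with 0 lost, 12 of the 19 around Rspo3, followed by receptors with 27 of 156 gained (17.3%) and 6 lost, nuclear and intracellular factors with 15 of 114 (13.2%) and 4, inhibitors with 10 of 79 (12.7%) and 6, and ligands with 8 of 122 (6.56%) and 10 (8.20%). Over all regions the shares were 10.4% gained and 7.58% lost. G7 followed with 8 gained (16.7%) and 1 lost among R-spondin regions, 16 (10.3%) and 9 among receptors, 11 (13.9%) and 2 among inhibitors, 4 (3.51%) and 6 among nuclear factors, and 5 (4.10%) and 13 (10.7%) among ligands. All regions had fewer gains (5.69%) than losses (7.42%) in G7 as well. Ligands had fewer gains than losses in both clones, with a share lost in B10 near that over all regions. The number of regions with a peak in each library comes from the same presence calls, so it is no separate support. Of 122 ligand regions 95, 103 and 100 had a peak in WT, 88, 93 and 90 in B10 and 86, 92 and 94 in G7, which left every clone library below every WT library. Of 156 receptor regions 106, 102 and 99 had one in WT, 132, 136 and 124 in B10 and 120, 120 and 111 in G7, and here every clone library was above. Over all consensus regions every B10 library was above every WT library as well, at 78.0% to 82.6% against 74.6% to 76.1%. G7, at 74.1% to 75.7%, overlapped WT there. At regions open in all 9 libraries the median rank difference was -1.57 in B10 and -1.19 in G7 for ligands, and 8.13 and 3.07 for receptors.

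**Figure D1:**
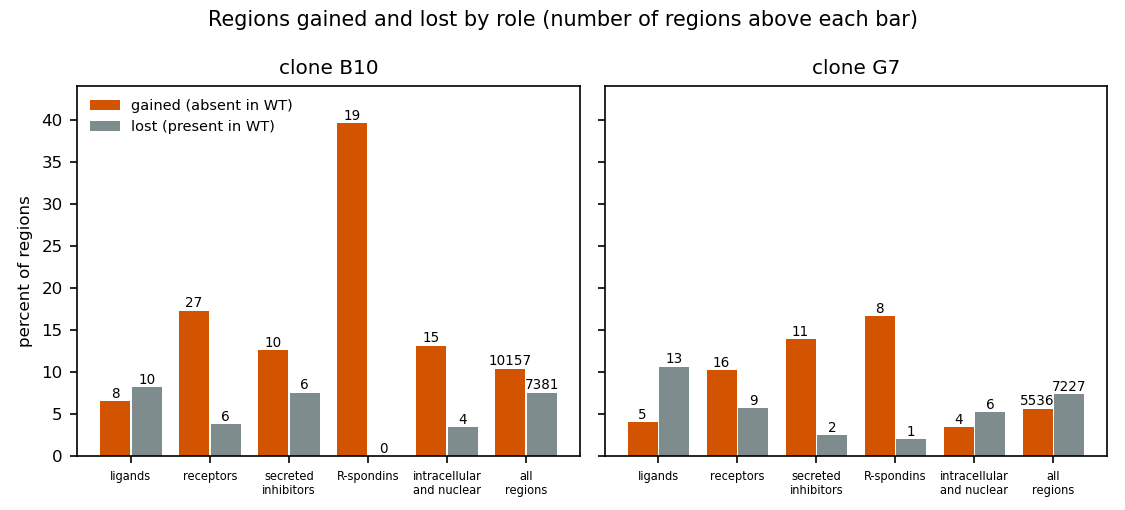
The panels show the percentage of each role group's regions that were gained or lost in B10 and in G7, with the share over all consensus regions at the right and the number of regions above each bar. R-spondin regions have the longest bar for gains in B10, at 39.6%, and ligands have the longest bar for losses in G7, at 10.7%.

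Start sites set the stage for the groups. Counting regions that cover an annotated protein-coding start of the gene, 28 of the 51 genes had at least 1, and 21 had one that was open in all 9 libraries, against 10973 (50.3%) and 9985 (45.7%) of 21829 protein-coding genes. Among receptors 12 of 14 had a start region, among nuclear and intracellular factors 8 of 8, among ligands 5 of 18, among inhibitors 2 of 8 and among R-spondins 1 of 3. Of the 23 start regions open in all 9 libraries, B10 ranked higher at 3 (Ror1, Tcf7l1 and Fzd8) and lower at 2 (Tcf7 and Wnt1), and G7 ranked higher at 4 (Ror1, Fzd8, Wif1 and an alternative start of Tcf7l2) and lower at 0. The other 16 were not called, with differences from -3.91 to 18.3 in B10 and from -8.83 to 12.4 in G7 and a lowest adjusted p of 0.0519 for Wnt9a in G7. The start regions of Axin2, Fzd9, Ror2, Sfrp1 and Fzd3 had no peak in at least 1 line, and those of Wnt5a and Wnt7a had one in a single B10 library.

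**Figure D2:**
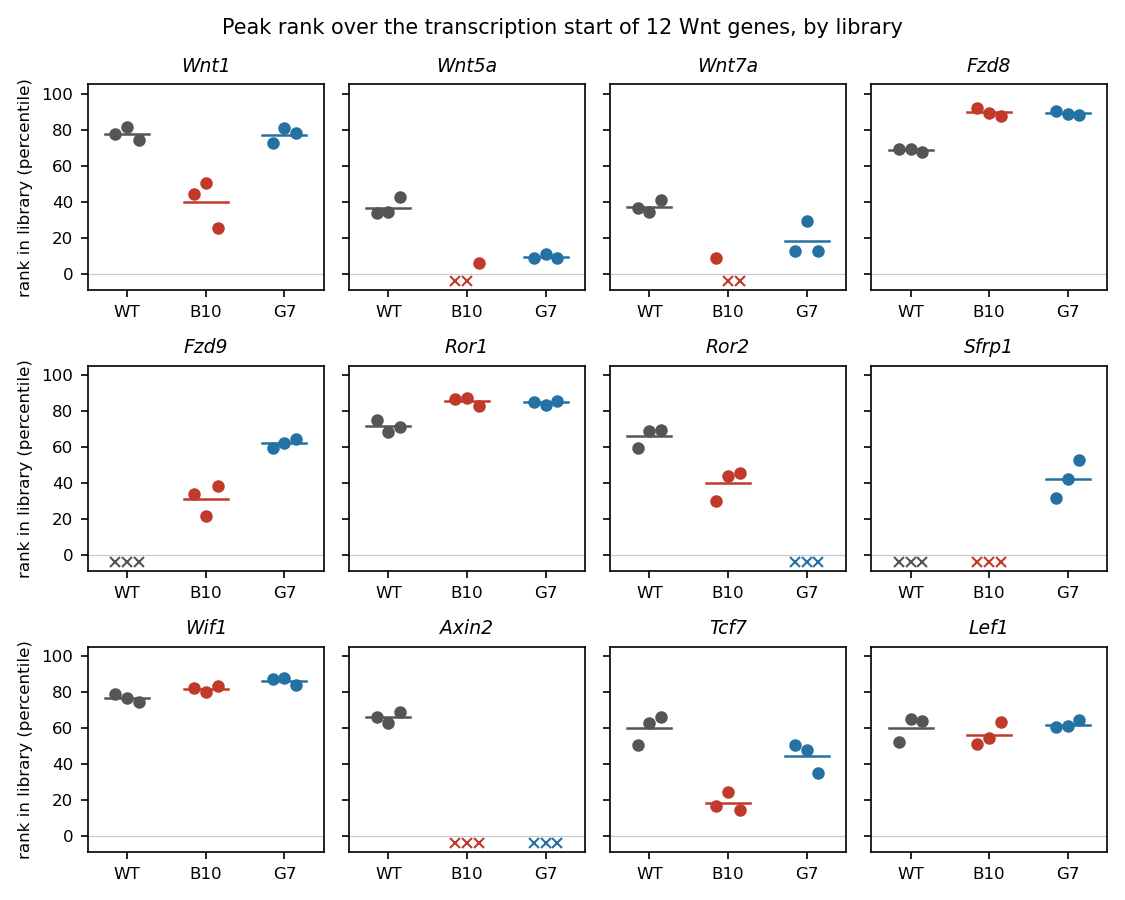
Each panel is the start region of 1 of 12 Wnt genes, the points are the rank of the strongest peak in each library, the lines are means of lines with a peak in all libraries, and crosses below 0 are libraries without a peak. Axin2 has points in WT alone and Fzd9 in the clones alone, and the B10 points of Wnt1 and Tcf7 lie below those of WT and G7.

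Among the ligands, 5 of 18 had a region over a start site, and of these the Wnt1 start alone was called, lower in B10. Wnt1, a ligand of the β-catenin branch, had a start region (chr15:98789039-98789916) that ranked 77.4, 81.5 and 74.2 in WT, 44.3, 50.6 and 25.8 in B10 and 72.7, 80.8 and 77.9 in G7. Every B10 library was below every other library there, and the ranks of G7 and WT overlapped. The rank fell by 37.5 in B10 (SE 5.95, limma adjusted p = 0.00345), and the difference in G7 was -0.56 with an interval from -13.9 to 12.7 (adjusted p = 0.97). The difference between B10 and G7, -36.9, passed as well (adjusted p = 0.0078). Wnt7b, another ligand of this branch, had an intergenic region 20.9 kb upstream of its start (chr15:85603382-85604057) at 81.2, 80.4 and 82.1 in WT, 31.4, 28.8 and 19.4 in B10 and 62.4, 60.5 and 62.7 in G7. The 3 lines did not overlap, and G7 lay between the others. It fell by 54.7 in B10 (SE 4.12, adjusted p = 0.000145) and by 19.4 in G7 (adjusted p = 0.0182), with -35.3 between the clones (adjusted p = 0.00188), and its fold enrichment was 8.09, 9.42 and 10.1 in WT, 3.66, 3.76 and 3.49 in B10 and 6.39, 6.08 and 6.63 in G7. The G7 call at this site was lost in 8 of 18 other settings.

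Wnt5a, the best known ligand of the branch without β-catenin, had 5 regions, which held more peaks in WT than in the clones. WT libraries had a peak at 4, 5 and 4 of them, B10 libraries at 0, 1 and 1 and G7 libraries at 1, 1 and 1. The start region (chr14:28504470-28506431) ranked 33.7, 34.2 and 42.7 in WT and 8.75, 11.4 and 8.73 in G7, and in B10 it had a peak in replicate 3 alone, at 6.23. Being absent from 2 libraries, it was in no rank test. By the rule it was lost in neither clone, since each had a library with a peak there. The regions lost in both clones were weak in WT, 1.63 and 16.5 in replicates 1 and 2 at chr14:28456266-28456838 and 1.63, 14.2 and 3.28 at chr14:28375657-28376130. They lie over the neighbouring gene Erc2, as does a further lost one at chr14:28376246-28376746. The rank of regions within 5 Mb of Wnt5a was 1.84 lower in B10 and 2.43 lower in G7 than in WT at the median. Wnt7a, a ligand with roles in limb patterning, showed a like order at its start, with 36.5, 34.6 and 41.2 in WT, 9.11 in B10 replicate 1 alone and 13.0, 29.2 and 12.8 in G7. The start regions of Wnt5b and Wnt9a were open in all libraries and not called. With the replicate block, Wnt5b was called higher in B10 (18.3, adjusted p = 0.0115) and Wnt9a lower in G7 (-8.83, adjusted p = 0.00741).

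The other ligand regions lost in both clones were near Wnt2 (105.01 kb, in an intron of St7, at 34.4 and 6.52 in WT replicates 2 and 3), Wnt3 (1.11 and 0.422), Wnt3a (17.5 and 7.13), Wnt9a (1.63 and 3.12) and Wnt7b (3.70 and 17.1). All of these were present in 2 of 3 WT libraries and all but the Wnt2 region ranked below 20. Gains in both clones were seen at 2 ligand regions, near Wnt16 in an intron of Cped1 (56.9 and 33.6 in B10, 54.1 and 19.3 in G7, replicates 1 and 2) and in Wnt7b (13.3 and 13.4 in B10, 19.8, 17.8 and 4.78 in G7). The remaining ligands, Wnt2b, Wnt4, Wnt6, Wnt8b, Wnt9b, Wnt10a, Wnt10b and Wnt11, had no region that was gained or lost in both clones, and no region of theirs covered a start.

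The receptors held 13 of the 24 regions gained in both clones, or 8.33% of the 156 receptor regions (2.97% of all regions), and 6 of these were in introns of Ror1. Without the Ror1 regions, 18 of 500 Wnt regions (3.6%) were gained in both, nearer the share over all regions. ROR1 is a receptor tyrosine kinase that binds WNT5A. Its 19 regions, 15 of them intronic, had a peak at 5, 7 and 7 in WT, 19, 16 and 16 in B10 and 16, 15 and 12 in G7. B10 gained 10 and G7 gained 6, and none of the ranges overlapped with WT. The gained regions have no WT peak by definition and became consensus regions through the clones. The counts by line thus follow in part from that rule and are no separate evidence. The region 64.4 kb into the gene (chr4:100160235-100160878) had no peak in WT and ranked 71.7, 60.4 and 64.3 in B10 and 16.6, 46.7 and 26.4 in G7. At 85.7 kb (chr4:100181501-100182382) the ranks were 59.8, 63.8 and 58.6 in B10 and 16.6, 46.7 and 37.8 in G7, and at 101.29 kb they were 63.1, 53.0 and 55.5 in B10 and 32.3, 30.1 and 17.6 in G7. These sites were stronger in B10 than in G7. The region at 152.09 kb was at 49.4, 52.1 and 29.0 in B10 and 51.2, 38.9 and 16.0 in G7, and those at 36.6 and 126.31 kb had peaks in 2 libraries of each clone, from 5.91 to 47.4. The start region of Ror1 (chr4:100095682-100096811) was open in all libraries, at 75.0, 67.9 and 70.8 in WT, 86.3, 87.2 and 82.8 in B10 and 84.7, 83.4 and 85.5 in G7. It rose by 14.2 in B10 (SE 2.20, adjusted p = 0.00306) and by 13.3 in G7 (adjusted p = 0.00644), and the clones overlapped. Its fold enrichment was 16.3, 13.9 and 14.7 in WT, 16.0, 16.7 and 15.3 in B10 and 16.0, 14.4 and 16.8 in G7, and on the log2 scale it was not called (adjusted p = 0.545 and 0.702). The neighbouring 5 Mb moved by 1.26 in B10 and -0.23 in G7 at the median.

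**Figure D3:**
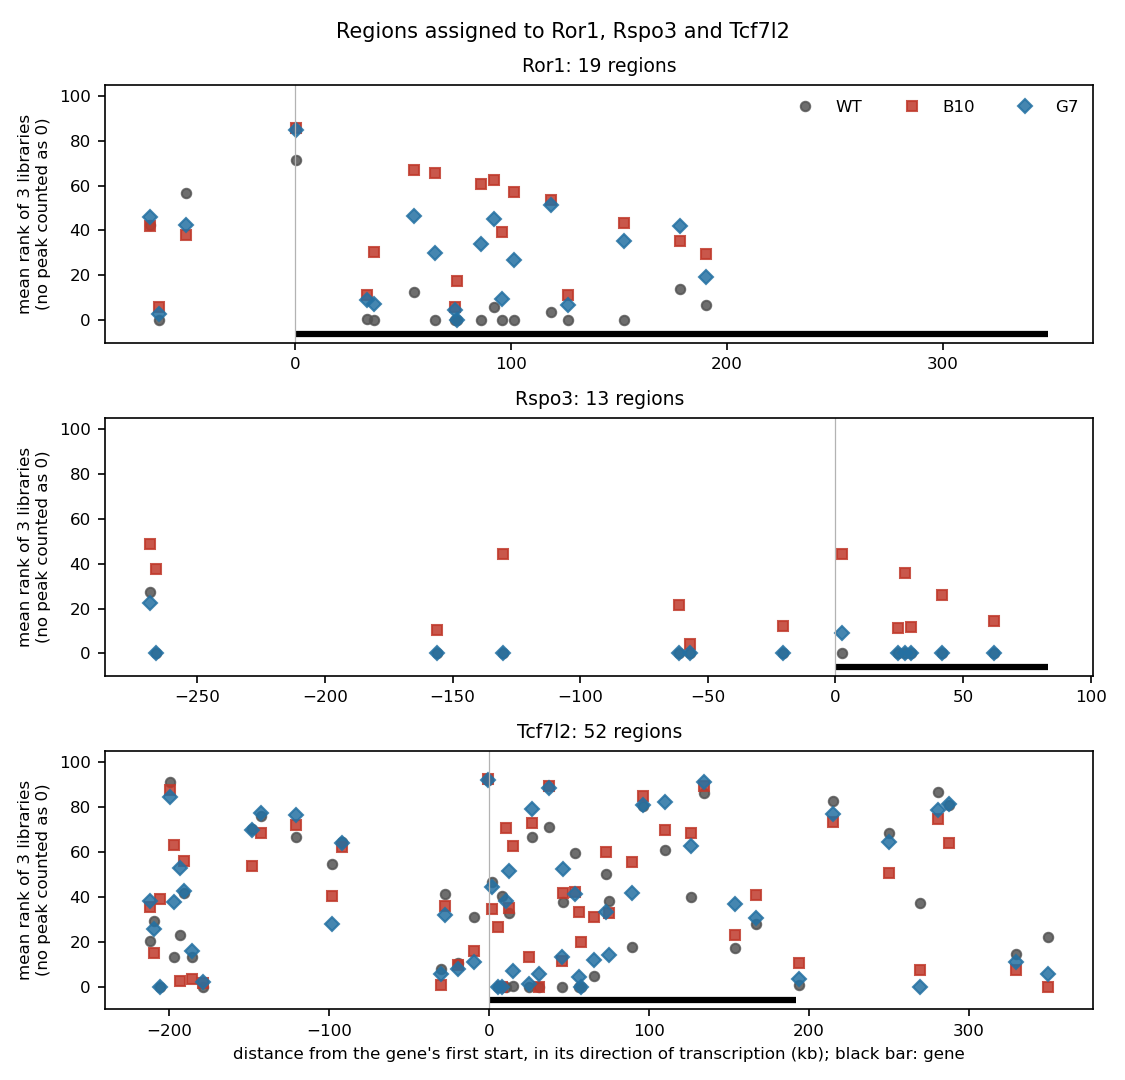
The panels plot the regions of Ror1, Rspo3 and Tcf7l2 by distance from the first start of the gene in kb, with the mean rank over the 3 libraries of each line on the vertical axis (a library without a peak counts as 0) and a black bar for the gene. Within Ror1 the B10 and G7 marks lie mostly above those of WT, at Rspo3 the B10 marks stand above 0 and nearly all others at 0, and at Tcf7l2 the lines are mixed.

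Ror2, the paralogue of Ror1, went the other way in G7. Its start region (chr13:53285240-53286377) ranked 59.1, 69.0 and 69.4 in WT and 30.1, 43.8 and 45.4 in B10, and it had no peak in G7. Of its 4 regions, 4 had a peak in every WT library and 1 in every G7 library.

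The Frizzled receptors were open at the start in all 9 libraries for Fzd1, Fzd2, Fzd4, Fzd5, Fzd7 and Fzd8, and the first 5 of these were not called in either clone. Fzd9 had a start region (chr5:135250514-135251569) with a peak in the clones alone. It had no peak in WT and ranked 33.8, 21.9 and 38.3 in B10 and 59.5, 62.0 and 64.1 in G7, with fold enrichments of 6.72, 5.14 and 7.58 and of 11.0, 11.0 and 11.4. G7 was above B10 in every library, and the call of a gain in both clones was kept in all 15 other settings. With a peak in all 3 libraries of each clone, leaving out libraries could not change it. Only the number of peaks, the threshold and the overlap could. Fzd8 had a start region (chr18:9211644-9213657) at 69.5, 69.1 and 67.7 in WT, 91.8, 89.2 and 87.5 in B10 and 90.4, 88.8 and 87.9 in G7. All KO libraries were above all WT libraries, and it rose by 20.7 in B10 (SE 1.62, adjusted p = 0.000166) and 20.3 in G7 (adjusted p = 0.000277). Its fold enrichment was 13.3, 14.1 and 13.5 in WT, 14.9, 13.9 and 12.9 in B10 and 14.8, 13.7 and 12.7 in G7, so the lines overlapped on that scale, with log2 differences of 0.032 and 0.011 (adjusted p = 0.868 and 0.962). Upstream of Fzd8, 3 intergenic regions 255.78 to 395.36 kb away were gained in both clones, with ranks from 1.56 to 51.9. The 30 regions of Fzd8 had a peak at 21, 15 and 18 in WT, 28, 28 and 24 in B10 and 23, 21 and 19 in G7. Regions within 5 Mb of it rose by 3.88 in B10 and 2.75 in G7 at the median, and the part of this in the result was not tested.

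Other Frizzled regions gained in both clones were 1.2 kb inside Fzd7 (chr1:59483624-59484192, 56.8, 49.6 and 39.7 in B10, 55.6, 44.7 and 46.3 in G7) and 99.7 kb from Fzd1 (5.91 to 27.2). Fzd1 also had a region 30.2 kb upstream, over the non-coding gene Gm42744 (chr5:4788216-4789208), at 63.5, 76.4 and 67.7 in WT, 83.9, 84.9 and 85.5 in B10 and 80.7, 90.5 and 88.7 in G7. By rank it rose by 15.6 (adjusted p = 0.0153) and 17.4 (adjusted p = 0.014), but its fold enrichment was 10.5, 16.2 and 13.2 in WT, 10.4, 10.6 and 11.0 in B10 and 10.2, 12.01 and 13.0 in G7, so that the direction turned on that scale. Losses in both clones were found near Fzd2 (21.8 and 12.05 in WT replicates 2 and 3), Fzd4 (13.7 and 16.5 in replicates 1 and 2) and Fzd5 (18.6 and 15.8 in replicates 1 and 3, in an intron of Plekhm3). Fzd3 had a peak at the start in G7 replicates 2 and 3 alone, at 14.0 and 14.2, and Fzd6 had 4 regions and none at its start.

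The co-receptors Lrp5 and Lrp6, which Wnt ligands need to reach β-catenin, were open at the start in every library. With the replicate block the Lrp6 start was called higher in B10 (3.83, adjusted p = 0.0205). An intron of Lrp5 42.3 kb from its start (chr19:3643524-3644246) had the greatest rise of any named region. It ranked 44.5, 8.70 and 6.46 in WT, 88.2, 84.5 and 82.4 in B10 and 79.0, 62.4 and 63.1 in G7, and replicate 1 of WT stood well above its fellows. The lines did not overlap, and the rank rose by 65.2 in B10 (SE 9.31, adjusted p = 0.00212) and by 48.2 in G7 (adjusted p = 0.0122). Fold enrichment showed the same order, at 3.44, 2.32 and 2.19 in WT, 8.64, 8.76 and 7.92 in B10 and 7.33, 5.68 and 5.05 in G7. Lrp6 gained a region in an intron 72.4 kb from its start (chr6:134493886-134494464), at 56.7, 52.1 and 23.4 in B10 and 45.5, 14.0 and 11.6 in G7.

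**Figure D4:**
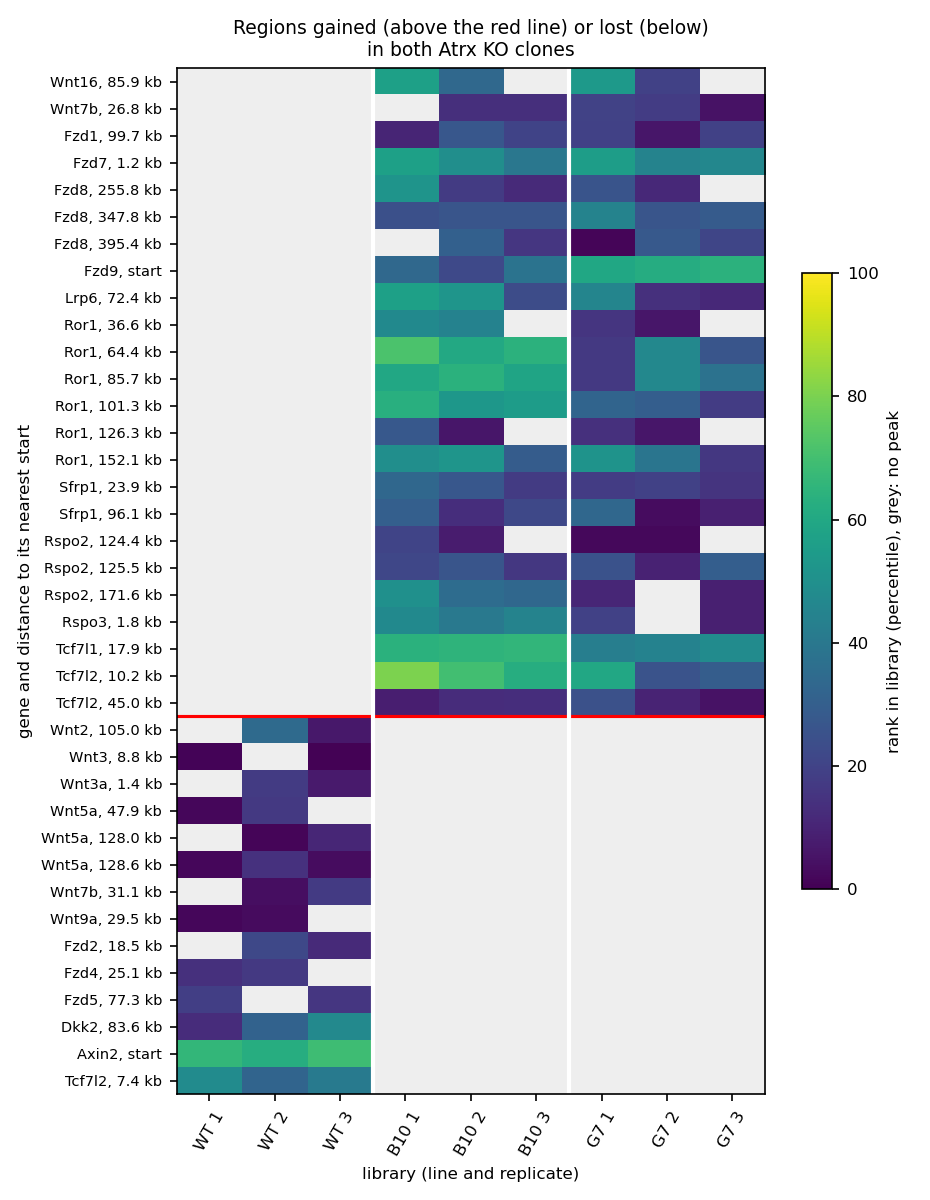
Each row is a Wnt region gained or lost in both clones and each column a library, coloured by rank, with grey cells where no peak was called. Gained regions reach ranks up to 80.1 and lost regions up to 68.9, and many losses are of regions that ranked below 20 in WT.

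Among the secreted inhibitors, Dkk2, which binds the LRP co-receptors, had sites that moved in each direction. A region 1.73 kb into the gene (chr3:132087017-132087495) ranked 0.938, 15.9 and 0.637 in WT, 55.8, 64.0 and 59.1 in B10 and 46.8, 47.6 and 44.5 in G7. It rose by 53.8 in B10 (SE 5.48, adjusted p = 0.000481) and 40.5 in G7 (adjusted p = 0.0028), and no line overlapped another. At 83.6 kb upstream, over the non-coding gene Gm29865, a region with 12.9, 31.4 and 47.0 in WT had no peak in either clone. The 26 regions of Dkk2 had a peak at 17, 20 and 20 in WT, 14, 18 and 17 in B10 and 13, 22 and 19 in G7, which overlap.

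Wif1, which binds Wnt ligands directly, ranked higher in both clones at an intronic region 21.2 kb from its start (chr10:121055273-121056050). The ranks were 12.9, 20.8 and 18.2 in WT, 44.4, 40.7 and 47.5 in B10 and 45.7, 47.5 and 40.3 in G7. They rose by 26.97 in B10 (SE 4.80, adjusted p = 0.00577) and 27.2 in G7 (adjusted p = 0.00841), and the clones overlapped. The start region was at 78.9, 76.5 and 74.5 in WT, 81.9, 80.0 and 82.9 in B10 and 87.0, 87.5 and 83.9 in G7. It rose by 9.48 in G7 (adjusted p = 0.0131), and the difference of 4.91 in B10 did not pass (adjusted p = 0.103) unless the replicate block was used (adjusted p = 0.0422). By fold enrichment on the log2 scale the G7 rise at this start was not called.

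Sfrp1, a decoy for Wnt ligands that resembles Frizzled, had a start region with a peak in G7 alone, at 31.7, 42.1 and 52.5. Its 8 regions had a peak at 3, 1 and 1 in WT, 6, 5 and 6 in B10 and 7, 7 and 5 in G7. A region 23.9 kb from the start (chr8:23435418-23435948) was gained in both clones, at 33.2, 27.2 and 17.5 in B10 and 17.9, 19.3 and 15.1 in G7, and so was one 96.1 kb away (30.1, 13.0 and 21.7, and 33.2, 3.27 and 8.73). The neighbouring 5 Mb rose by 3.43 in B10 and 4.68 in G7 at the median. Sfrp2 had a peak at 11, 8 and 8 of its 17 regions in WT, 16, 13 and 9 in B10 and 13, 8 and 11 in G7. Sfrp4 had all of its 3 regions open in G7, 2 in WT and 1 in B10. Dkk1, Dkk3 and Sfrp5 had 1, 11 and 7 regions, none of them gained or lost in both clones, and none of these genes had a peak over its start.

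The R-spondins, secreted proteins that spare Frizzled and LRP receptors from degradation, are 3 genes here, and 1 of them, Rspo3, had many regions in B10 alone. Rspo3 had 13 regions with a peak at 0, 1 and 1 in WT, 11, 11 and 11 in B10 and 1, 1 and 2 in G7. B10 gained 12 of them and G7 gained 1, and 11 were present in B10 and in no G7 library. These 11 had no peak in WT either, so they became consensus regions through B10 alone. Their counts by line follow from that rule and are no separate evidence. Their ranks in B10 ran from 3.61 to 57.3. The counts per gene were looked at for every gene, but the Rspo3 regions besides the one gained in both clones were chosen for mention after their values were seen. The region called in both, 1.82 kb from an annotated start (chr10:29532904-29534044), had no peak in WT and ranked 47.6, 40.4 and 44.6 in B10, with 19.2 and 8.73 in G7 replicates 1 and 3. At 129.65 kb upstream (chr10:29665515-29666780) B10 alone had a peak, at 30.1, 54.6 and 48.7, and at 265.96 kb (chr10:29801830-29802354) it ranked 34.6, 35.5 and 43.0. The region that was open in WT too, 268.25 kb upstream, had 39.5 and 43.2 in WT replicates 2 and 3, 49.0, 50.4 and 46.4 in B10 and 32.7 and 34.4 in G7 replicates 2 and 3. The regions with a peak in B10 alone were spread over the gene and its upstream side. Regions open in all 9 libraries within 5 Mb moved by 0.28 in B10 and 0.29 in G7. Without the Rspo3 regions, B10 gained 67 of 506 Wnt regions (13.2%).

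Rspo2 was open at its start in every library, at 92.2, 90.5 and 91.2 in WT, 92.4, 91.3 and 91.0 in B10 and 91.9, 90.3 and 91.7 in G7, with a difference of 0.338 in B10 (interval -1.43 to 2.11, adjusted p = 0.824). Its 33 regions had a peak at 22, 18 and 18 in WT, 29, 25 and 23 in B10 and 26, 27 and 24 in G7. A distal region 214.95 kb away (chr15:42955138-42955868) ranked 84.5, 82.0 and 78.4 in WT, 95.6, 95.1 and 94.9 in B10 and 90.8, 90.7 and 93.5 in G7. It rose by 13.5 in B10 (SE 1.47, adjusted p = 0.000615) and 10.1 in G7 (adjusted p = 0.0038), without overlap between the lines, but its fold enrichment was not called on the log2 scale (adjusted p = 0.308 and 0.502). The 3 Rspo2 regions gained in both clones lay 124.42 to 171.55 kb from the start and ranked from 2.06 to 50.1. Rspo1 had 2 regions, neither of them called in both clones nor over its start.

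Of the 8 intracellular and nuclear genes, 7 were open at a start in all libraries, and Axin2 was not. AXIN2 is part of the complex that destroys β-catenin, and its gene is itself a widely used target of the pathway. The start region (chr11:108920049-108920914) ranked 66.2, 62.5 and 68.9 in WT, with fold enrichments of 12.6, 13.4 and 14.9, and had no peak in any of the 6 KO libraries. The loss was called in all 15 other settings. The only other Axin2 region, 88.5 kb downstream (chr11:109011646-109012100), was among the strongest peaks of every library, at 99.98, 99.96 and 99.98 in WT, 99.95, 99.93 and 99.97 in B10 and 99.97, 99.97 and 99.98 in G7. Regions within 5 Mb of Axin2 moved by 0.31 in B10 and 1.25 in G7 at the median. The start region of Axin1, the paralogue, ranked from 99.0 to 99.8 in all libraries and was not called, and neither were the start regions of Apc, from 86.2 to 92.7.

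Tcf7, the gene of the factor TCF1, was lower in B10 at its start (chr11:52282514-52283664), which the non-coding gene A630014C17Rik overlaps. The ranks were 50.5, 62.7 and 66.1 in WT, 16.5, 24.2 and 14.8 in B10 and 50.5, 47.7 and 35.2 in G7. All B10 libraries were below all others, while the highest G7 library and the lowest WT library met at 50.5. The rank fell by 41.3 in B10 (SE 6.15, interval -55.0 to -27.5, adjusted p = 0.00255). The difference in G7 was -15.3 (adjusted p = 0.149), or -23.0 without replicate 1 of every line, which passed the threshold, and that between B10 and G7 was -26.0 (adjusted p = 0.0368).

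Lef1 and Ctnnb1 were not called. The Lef1 start ranked 51.9, 64.8 and 63.6 in WT, 50.9, 54.3 and 63.4 in B10 and 60.3, 60.8 and 64.3 in G7. The differences were -3.91 in B10 (interval -14.8 to 6.99, adjusted p = 0.645) and 1.71 in G7 (interval -9.20 to 12.6, adjusted p = 0.87), so that the lines overlapped and a change of several rank points could not be seen. The Ctnnb1 start ranked 84.8, 73.4 and 79.7 in WT, 84.8, 80.3 and 79.8 in B10 and 85.4, 80.1 and 81.8 in G7, with differences of 2.35 (adjusted p = 0.645) and 3.12 (adjusted p = 0.556).

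Tcf7l2, which encodes TCF4, had the most regions of the Wnt genes, 52, and its sites moved in both directions. A peak was present at 40, 38 and 36 of them in WT, 45, 46 and 40 in B10 and 42, 39 and 38 in G7. An intronic site 7.36 kb from the start (chr19:55749704-55749944) ranked 48.1, 32.4 and 41.1 in WT and had no peak in either clone. Less than 3 kb further on (chr19:55752551-55753308), a site with no peak in WT ranked 80.1, 69.9 and 62.3 in B10 and 59.9, 25.5 and 29.5 in G7, the highest rank of any region gained in both clones. Another intronic site, 45.0 kb from the start, was gained at 8.37, 12.7 and 13.0 in B10 and 24.7, 10.0 and 4.87 in G7. Of the sites open in all libraries, the one 36.6 kb inside (chr19:55778910-55780374) ranked 76.1, 72.3 and 64.3 in WT, 89.3, 88.6 and 89.8 in B10 and 90.5, 87.1 and 88.3 in G7. It rose by 18.3 (SE 2.64, adjusted p = 0.00217) and 17.8 (adjusted p = 0.0041). A further one (chr19:55867704-55868439) ranked 47.9, 37.0 and 34.7 in WT, 62.6, 72.0 and 70.5 in B10 and 54.8, 72.6 and 60.8 in G7, and rose by 28.5 (adjusted p = 0.0096) and 22.9 (adjusted p = 0.0339). Neither was called by fold enrichment on the log2 scale. The first start of Tcf7l2 was not called, and an alternative start (chr19:55895341-55896238) was at 25.8, 11.98 and 13.3 in WT, 24.0, 20 and 25.1 in B10 and 38.4, 34.9 and 37.1 in G7. G7 was above all other libraries there, and the rise of 19.8 (adjusted p = 0.0462) was lost in 14 of 18 other settings.

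Tcf7l1, which encodes the mostly repressive factor TCF3, had a start region at 94.8, 91.8 and 92.6 in WT, 98.0, 97.8 and 98.1 in B10 and 95.9, 94.3 and 95.8 in G7. It rose by 4.87 in B10 (SE 0.78, adjusted p = 0.00355), but was not called there by fold enrichment on the log2 scale. The median over the neighbouring 5 Mb was 6.47 higher in B10, and against that median the start was at -4.28. In G7 the difference of 2.24 did not pass (adjusted p = 0.102), but it did with the replicate block (adjusted p = 0.0168) and without WT replicate 1 or replicate 1 of every line. An intron 17.9 kb from the start (chr6:72769996-72770742) was gained in both clones, at 64.0, 65.1 and 65.7 in B10 and 42.7, 44.4 and 48.3 in G7, with B10 above G7 in every library.

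**Figure D5:**
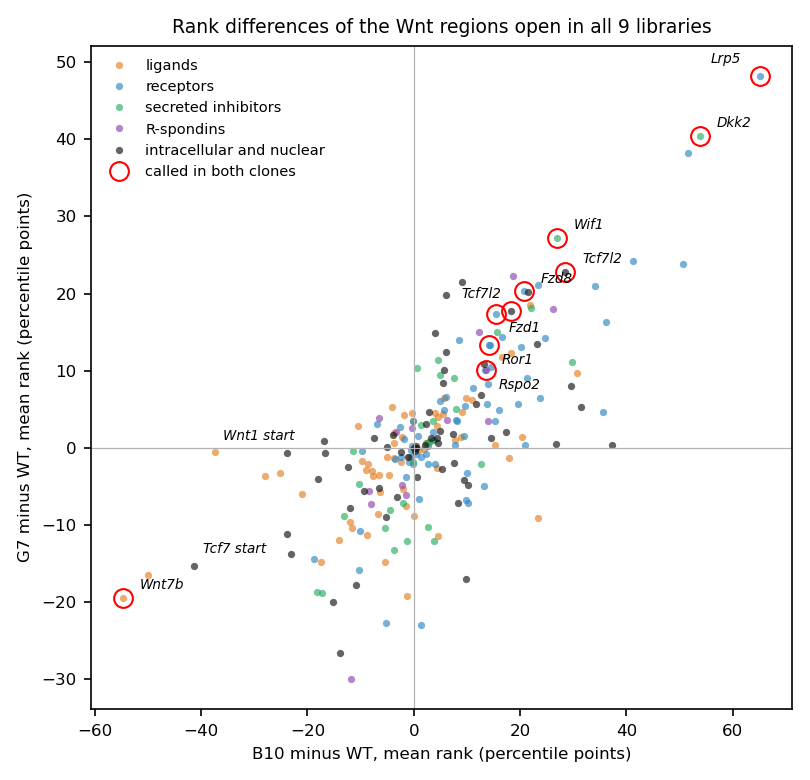
The points are Wnt regions open in all 9 libraries, with the rank difference of B10 minus WT on 1 axis and of G7 minus WT on the other, in rank points, coloured by role and circled where both clones were called. The Lrp5 and Dkk2 regions sit at the upper right, the Wnt7b region at the lower left, and the Wnt1 start lies low on the B10 scale and near 0 for G7. Both axes share the WT libraries.

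In the sequences shown above, 1 window held the TCF and LEF letters, that of the Tcf7 start, 33 bp from the summit. The Axin2 start region held a match too, in its first exon (chr11:108920427-108920433), outside the stretch shown. Over 100 bp either side of the summit, these letters were found in 11 of 519 Wnt regions (2.12%) and in 1989 of all consensus regions (2.04%). Of the 14 Wnt regions lost in both clones 2 had them, those of Axin2 and Fzd5 (14.3%, 2.47% of all regions lost in both). Of the 24 gained 1 did, in Wnt7b (4.17%, 2.46% of all regions gained in both). Counts of 2 and 1 are too small to compare with these shares. The AP-1 letters were found in 95 Wnt regions (18.3%, 18.4% of all), in 5 of the 14 lost in both clones (35.7%, 28.3% of all regions lost in both) and in 1 of the 24 gained (4.17%, 11.4% of all regions gained in both). The 5 were near Wnt2, Wnt3a, Wnt5a, Wnt7b and Fzd4. Both the Wnt regions and all regions thus had the AP-1 letters more often among losses than among gains, and a match is no proof of binding.

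Other genes of the pathway, 46 in all, were described in the same way, and 45 of them had 304 regions. B10 gained 36 of these (11.8%, 10.4% of all) and lost 28 (9.21%, 7.58% of all). G7 gained 18 (5.92%, 5.69% of all) and lost 30 (9.87%, 7.42% of all). Both gained 11 (3.62%, 2.97% of all) and lost 18 (5.92%, 4.36% of all). The shares lost were thus above those over all regions, unlike those of the 51 Wnt genes. Losses in both clones outnumbered gains over all consensus regions too. Of the 150 open in all 9 libraries, 22 were higher and 6 lower in B10 (11.0% and 5.37% of all), and 11 higher and 4 lower in G7 (5.39% and 4.82% of all). The start was open in all 9 libraries for 26 genes, among them Porcn and Wls, which ligands need for secretion, and the Dishevelled genes Dvl1, Dvl2 and Dvl3, and in none for 14. Lgr5, a receptor of R-spondins, gained its start region in both clones (56.9, 40.7 and 43.3 in B10, 51.8, 55.5 and 47.1 in G7). Frzb, a secreted inhibitor, lost its own (18.6, 40.5 and 34.9 in WT). These genes were named after their values were seen. Among 10 target genes of the pathway, which hold 166 regions, B10 gained 16 (9.64%) and lost 4 (2.41%) and G7 gained 10 (6.02%) and lost 4 (2.41%). The shares gained were close to those over all regions, 10.4% and 5.69%, and the shares lost were below theirs, 7.58% and 7.42%. The start sites of Myc, Ccnd1, Znrf3, Cd44 and Twist1 were open in all libraries.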

How the data were processed

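ATAC-seq was run on 9 libraries, 3 of WT C3H/10T1/2 cells and 3 each of the Atrx KO clones B10 and G7, grouped by their labels. The authors checked reads with Rfastp, aligned them to mm10 with Rsubread and called peaks with MACS2 in paired-end mode for each replicate. The deposited values are, per peak, a fold enrichment (a ratio of signal to background) and p- and q-values as −log10, all made by the authors' peak caller, with every q-value at or under 0.05. The version of MACS2 is not given in the sources used here. Peak names in the lists speak of an input, which the methods do not name, so whether the fold enrichment is over an input or over local background is unclear, and so is the exclusion of blacklisted regions. The lists hold no counts, so depth is unknown, the precision is limited by the 3 libraries per line, and the count model of the study was not used here.

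Peaks were merged into consensus regions, annotated with GENCODE M21 and ranked within each library by −log10 q (Python 3.11.15, pandas 2.3.3, numpy 2.4.6). Ranks at the 47431 regions open in all 9 libraries were compared with limma 3.58.1 in R 4.3.3, with no covariate, two-sided, with Benjamini-Hochberg adjustment over all of them and a threshold of 0.05, in a script tested on simulated data. Intervals are 95%. The labels do not say that libraries are separate cultures, so p-values measure the spread between these libraries, which may be technical. Replicate numbers pair the libraries, since deviations from the line means correlated at 0.314 to 0.664 over the 9 pairs with the same number. A fit with the number as a block is given by counts. Its values are given for regions named with all values where it changed a call, and for some other start regions. Other values are from the fit without the block. The block called more regions, with 31 higher and 10 lower in both clones against 9 and 1 without it. Both clones share the WT libraries. No 2 libraries shared over 0.379% of peaks.

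The members and lists were chosen with earlier results of these data known. Regions named with all values are those gained or lost in both clones, the start regions of Axin2, Lef1, Tcf7 and Ctnnb1, start regions called in either clone and, in each role, the 2 others with the greatest rank difference called in both. Alternatives changed the number of peaks, the threshold, the overlap, the distance and start sites, the measure, the filter, the local level, the replicate block and the libraries.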

Additional observations from a re-analysis of the deposited data

Results flagged for a closer look

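B10 and G7 differed from each other, by the limma contrast between the clones, at 3 of the regions described above, all of them lower in B10. The difference of B10 minus G7 was -26.0 rank points at the Tcf7 start (adjusted p = 0.0368), -35.3 at the Wnt7b region 20.9 kb upstream of the gene (adjusted p = 0.00188) and -36.9 at the Wnt1 start (adjusted p = 0.0078). Each clone stands for 1 guide and 1 cell, so a difference of guide, clone or knockout cannot be told apart.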

How the results depend on the processing

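Counts of called Wnt regions moved with the settings, and some directions turned. The balance between regions in B10 alone and in G7 alone turned with equal numbers of peaks. That between higher and lower regions turned by fold enrichment in both clones, and against the local median in B10. With peaks required to cover at least 50% of a region, B10 lost 48 (9.25%, 9.83% of all) and 41 were in G7 and not B10 (7.90%, 6.06% of all). Of 293 regions within 50 kb of a start, B10 gained 28 and lost 17 (9.56% and 5.80%, all regions at that distance 8.06% and 7.23%), G7 gained 16 and lost 15 (5.46% and 5.12%, all 5.28% and 6.70%), both gained 9 and lost 9 (3.07% each, all 2.61% and 4.06%), 20 were in B10 and not G7 (6.83%, all 5.93%), 16 in the reverse case (5.46%, all 4.17%) and 5 of 152 ranked higher in B10 than in G7 (3.29%, all 3.91%). With equal numbers of peaks, 28 were in B10 and not G7 (5.86%, 6.02% of all) and 37 in the reverse case (7.74%, 5.99% of all). By fold enrichment, 8 were higher and 9 lower in B10 (3.45% and 3.88%, all 3.04% and 3.05%), 3 and 5 in G7 (1.29% and 2.16%, all 1.004% and 2.27%), 3 and 2 in B10 against G7 (1.29% and 0.862%, all 1.26% and 0.656%), and 3 higher in both (1.29%, all 0.729%). Ranks among open regions gave 6 lower in G7 (2.59%, all 5.21%) and 4 in both (1.72%, all 2.72%). With no filter, 82 of 519 were higher and 39 lower in B10 (15.8% and 7.51%, all 11.6% and 6.57%), 32 and 17 in G7 (6.17% and 3.28%, all 4.62% and 5.67%), 30 and 20 between the clones (5.78% and 3.85%, all 5.96% and 2.48%), and 22 and 12 in both (4.24% and 2.31%, all 2.87% and 3.39%). Against the local median, 2 were higher and 14 lower in B10 than in G7 (0.862% and 6.03%, all 1.80% and 3.28%) and 2 lower in both (0.862%, all 1.37%). With the replicate block the counts were 67 and 30 in B10 (21.4% and 12.1% of all regions), 37 and 19 in G7 (13.2% and 13.4%), 33 and 20 between the clones (14.3% and 6.58%) and 31 and 10 in both (9.62% and 5.51%). Leaving out 1 library or 1 replicate number gave 46 to 108 gains in clone B10, 29 to 64 in clone G7 and 17 to 41 shared ones, 10 to 38, 16 to 46 and 6 to 20 losses, and 21 to 73 in B10 and not G7 against 11 to 36. For ranks it gave 2 to 51 higher and 1 to 28 lower in B10, 0 to 29 and 0 to 12 in G7, 0 to 24 and 0 to 17 between the clones, and 0 to 20 and 0 to 6 in both. The lowest came without replicate 2 or 3 of every line, which leaves 2 libraries a line. Leaving out libraries changed the calls and fits of all regions alike. These ranges are given without the shares over all regions, so they say nothing particular to the Wnt genes. The Fzd1 region reversed by fold enrichment (log2 differences of -0.294 and -0.163), and the Tcf7l1 start in B10 against the local median (-4.28). Of the 38 regions gained or lost in both clones, 17 kept that call in every setting in which they were found, with Axin2, Fzd9, Fzd7, Lrp6 and Tcf7l1 among them. The other 21 lost it in at least 1 setting, and 19 of these when 1 of the 2 libraries that carried the call in a line was left out. A call carried by all 3 libraries of a line could not be lost by leaving out libraries. For such regions only the number of peaks, the threshold and the overlap were a check. Leaving out a single library changed rank calls of named regions in few places. The Wnt7b region in G7 lost its call without replicate 2 or 3 of WT or of G7, the Fzd1 region without replicate 3 of WT or replicate 2 or 3 of the clone, the second higher Tcf7l2 intron in G7 without replicate 2 or 3 of any line, its alternative start in G7 without any library but WT replicate 1, and the Wif1 start in G7 without G7 replicate 2, while the Tcf7l1 start in G7 passed without WT replicate 1. Leaving out the regions of Rspo3, Ror1, Tcf7l2, Rspo2 or Fzd8 in turn, chosen after seeing the data, left 67 to 72 regions gained in B10. It left 18 (without Ror1) to 23 (without Rspo3) gained in both clones. The cause was not tested where no construction shows it. Depth is unknown, so a lost peak may be one under the threshold.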
